A study of Capsicum annuum with 2 samples.

Results

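The F-box protein unigenes described here are 6 assembled transcripts of chili pepper anthers. They were chosen by annotation, as listed unigenes named F-box proteins among the first 1999 annotations of the study (5 unigenes) or among its unigenes chosen for RT-PCR (1 unigene). They are 6 of the 11387 unigenes in the expression table. They are not all of its F-box unigenes, since the later annotations were not used here, and the study's own F-box list is much longer. The table compares the cytoplasmic male sterile (CMS) line 121A, which does not form functional pollen, with the near-isogenic restorer line 121C, in which a dominant nuclear restorer gene gives back fertility. Both lines carry the cytoplasm of the same sterile parent and were backcrossed repeatedly to the same inbred line. The study believes that they share their nuclear background apart from the restorer locus. What the backcrosses left of the donor, around this locus or elsewhere, was not examined here. Anthers of all bud phases and of many untreated greenhouse plants were pooled, and 1 library per line was sequenced. There is therefore no replicate, and every interval below covers counting error only.

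F-box proteins are the substrate receptors of SCF ubiquitin ligases, in which the F-box holds the adaptor SKP1, the cullin forms the scaffold and a second domain of the F-box protein binds the target. The target is tagged with ubiquitin and degraded by the proteasome. The second domain differs between family members, and WD40 repeats, kelch repeats, leucine-rich repeats and the F-box interaction domain are common ones. In anthers of Arabidopsis, the F-box protein COI1 is the jasmonate receptor needed for pollen maturation and anther opening, and in Petunia and Nicotiana the S-locus F-box proteins are made in pollen, where they act on the S-RNases of the pistil in self-incompatibility.

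The 6 unigenes fall into 3 kinds by annotation. The first, comp66553_c0_seq1, is an F-box and wd40 domain protein. The second kind has an S-locus or class S name. Here comp160698_c0_seq1 matches S-locus F-box-like protein a of Petunia integrifolia, and comp210006_c0_seq1 matches a class S F-box protein of Nicotiana alata. The remaining 3 have general names. They are comp103723_c0_seq1, an F-box domain-containing protein matching potato, comp155445_c0_seq1, an F-box protein interaction domain protein matching Solanum demissum, and comp149507_c0_seq1, similar to F-box only protein 13 of grapevine. The names come from the best protein match and say nothing about the position of the genes, which is not given here. No other unigene with the same Trinity component number as any of the 6 is listed, so none of them has a listed isoform that could share its reads. F-box proteins form a large gene family, and how reads shared by similar members were assigned is not given in the sources used here.

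Among the 6, comp66553_c0_seq1 is the one for which the study designed primers for RT-PCR. They are shown because they are the stretches of this unigene whose letters were used here. Both have 20 bases, of which 9 are G or C, and both are written from the 5′ end with no part marked by capitals.
comp66553_c0_seq1 forward primer: agcatgatatggcgtcaaca
comp66553_c0_seq1 reverse primer: ccaaacaaaggattcgggta

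The 121A library held 10744829 counted reads and the 121C library 9552875, of which the listed unigenes took 56% and 57.3%. A single unigene took 32.3% of the 121A library, and the most abundant one of the 121C library took 7.34%. All 11387 listed unigenes had been called different by the authors, so that an F-box unigene is called is part of how it came to be listed. In the annotations used here, no tapetum or pollen name is among the listed unigenes (0 of 2 such names), so the anther label was not checked against marker genes. As whole anthers were pooled, fewer cells of a type and less RNA per cell cannot be told apart for any value below.

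Of the 6 F-box unigenes, 5 were higher in 121C and 1 was higher in 121A. Calls were made with the MARS test, which compares the reads of the 2 libraries, and required an FDR no higher than 0.001 with a log2 ratio of 1 or more in size. The adjusted p of this MARS test ranged from 2.9e-173 for comp66553_c0_seq1 to 1.98e-05 for comp149507_c0_seq1. Among all listed unigenes, 62.0% were higher in 121C and 38.0% were higher in 121A, so the direction of most of the 6 was the more common one in the table. The 6 are a small part of the F-box unigenes in the table, and their split by direction does not stand for the family. No reads in 121A were found for 3 of the 6, against 22.9% of the listed unigenes. Listed unigenes without 121A reads are all higher in 121C. Within this direction, the counts were 3 of the 5 F-box unigenes and 2607 of the 7061 listed ones. The median log2 ratio of 121A over 121C, with 0 reads taken as 0.5 read, was -5.52 for the F-box unigenes and -1.78 for all listed ones, which include both directions. Among unigenes higher in 121C, the medians were -5.69 for the 5 F-box unigenes and -4.87 for all listed ones. With the unigenes that had 0 reads set at the near limit of their interval, the medians of the 6 and of all listed unigenes were -2.72 and -1.78.

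The F-box and wd40 domain unigene comp66553_c0_seq1 (1830 bp) had 0 reads in 121A and 1257 reads in 121C. WD40 repeats form a propeller-shaped surface by which F-box proteins of this kind bind their targets. Its level in 121C was 71.9 RPKM, where RPKM is the number of reads scaled by the length of the unigene and by the reads counted in the library (exact Poisson 95% interval 68.0 to 76.0). A count of 0 allows up to 3 reads, or 0.153 RPKM, in 121A. At the level of 121C, 1414 reads would have been counted there. By the near limit of the exact 95% (Clopper-Pearson) interval, the unigene was thus at least 383-fold higher in 121C. Its log2 ratio was below -8.58. This limit, like those of the other unigenes below, covers counting error at these library totals only. By the study's account, real-time RT-PCR gave a smaller change for this unigene than sequencing, also with a higher level in 121C.

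This unigene was included here because the study chose it for RT-PCR from its called unigenes. Its ranks therefore do not stand for F-box unigenes in general. It stood near the upper end of the listed unigenes. Its RPKM in 121C was higher than that of 93.1% of them, at rank 790 of 11387. Among the 2607 listed unigenes with 0 reads in 121A, it was at rank 31 by reads and at rank 76 by RPKM in 121C. By absolute log2 ratio it was at rank 61 of the 7061 unigenes that were higher in 121C. Thus 30 unigenes without a 121A read had more 121C reads than comp66553_c0_seq1, which belongs to a group of 43 (0.378% of the listed unigenes) with 0 reads in 121A and at least 1000 in 121C.

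**Figure D1:**
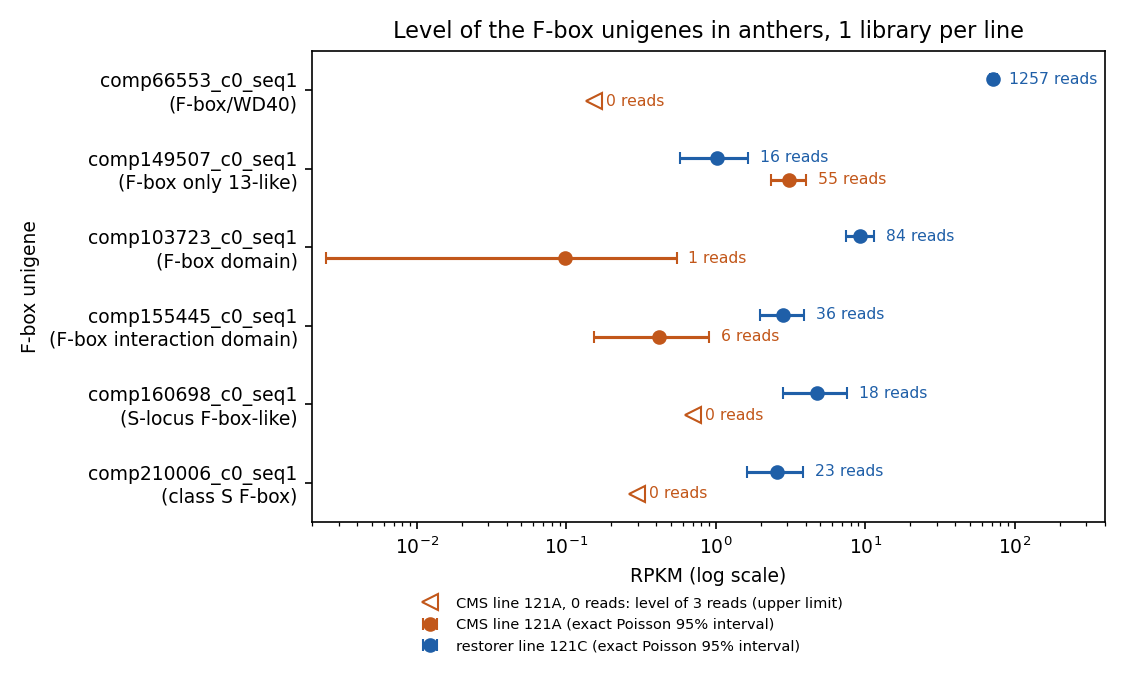
Level of each F-box unigene (RPKM, log axis) in the CMS line 121A (orange) and the restorer line 121C (blue), with exact Poisson 95% intervals and the reads beside each point; open triangles mark the level of 3 reads where 0 were counted. The 121C level of comp66553_c0_seq1 (71.9 RPKM) lies far above the others, and comp149507_c0_seq1 is the one with 121A to the right of 121C.

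The S-locus F-box-like unigene comp160698_c0_seq1 (396 bp) had 0 reads in 121A and 18 in 121C. In Petunia, S-locus F-box proteins are the pollen side of self-incompatibility, but an F-box-like name need not mean this role. Whether this unigene has it was not tested. Its level in 121C was 4.76 RPKM (interval 2.82 to 7.52), and 3 reads in 121A would be 0.705 RPKM. At an equal level 121A would have had 20.2 reads. It was at least 4.95-fold higher in 121C, and the near limit of its log2 ratio was -2.31. It is the shortest of the 6, and 89.3% of the listed unigenes are longer.

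The class S F-box unigene comp210006_c0_seq1 (937 bp) had 0 reads in 121A and 23 in 121C. Its level in 121C was 2.57 RPKM (interval 1.63 to 3.86), and it was at least 6.47-fold higher there, with a near limit of -2.69 for the log2 ratio. At an equal level, 25.9 reads would have been found in 121A. Its name does not contain the word S-locus, and a role in self-incompatibility was not tested for it either. Both unigenes with an S-locus or class S name were therefore without 121A reads, but at low read numbers. The fewest 121C reads of any listed unigene with 0 121A reads were 13, and the median was 30, so both lie in the lower part of this group. Their ratios have no lower limit and cannot be ordered, and the intervals of their levels in 121C overlap between 2.82 and 3.86 RPKM.

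The F-box domain unigene comp103723_c0_seq1 (950 bp) had 1 read in 121A and 84 in 121C. This was 0.0980 RPKM (interval 0.00248 to 0.546) against 9.26 RPKM (interval 7.38 to 11.5). The level in 121C was 94.5-fold higher, with an interval of 16.5-fold to 3776-fold, which is wide because of the single 121A read. On the log2 scale the ratio was -6.56 (interval -11.88 to -4.04). The exact intervals of the level in each line do not overlap.

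The F-box interaction domain unigene comp155445_c0_seq1 (1342 bp) had 6 reads in 121A and 36 in 121C. It is the one of the 5 121C-high unigenes with more than 3 reads in 121A. Its levels were 0.416 RPKM (interval 0.153 to 0.906) and 2.81 RPKM (interval 1.97 to 3.89). It was 6.75-fold higher in 121C (interval 2.82 to 19.6), a log2 ratio of -2.75 (interval -4.29 to -1.49). This ratio was the smallest of the 5 by size, and 67.6% of the unigenes that were higher in 121C had a larger one.

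The F-box only protein 13-like unigene comp149507_c0_seq1 (1657 bp) went in the other direction, with 55 reads in 121A and 16 in 121C. Its levels were 3.09 RPKM (interval 2.33 to 4.02) and 1.01 RPKM (interval 0.578 to 1.64). It was 3.06-fold higher in 121A (interval 1.73 to 5.71). The log2 ratio of 1.61 had an interval of 0.79 to 2.51, which includes values below the threshold of 1. With a negative binomial test in edgeR, at an assumed coefficient of variation of 0.2 between libraries, its adjusted p was 0.00693 and the call was lost. Among the listed unigenes that were higher in 121A, 90.6% had a higher RPKM there and 65.8% had a larger ratio.

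**Figure D2:**
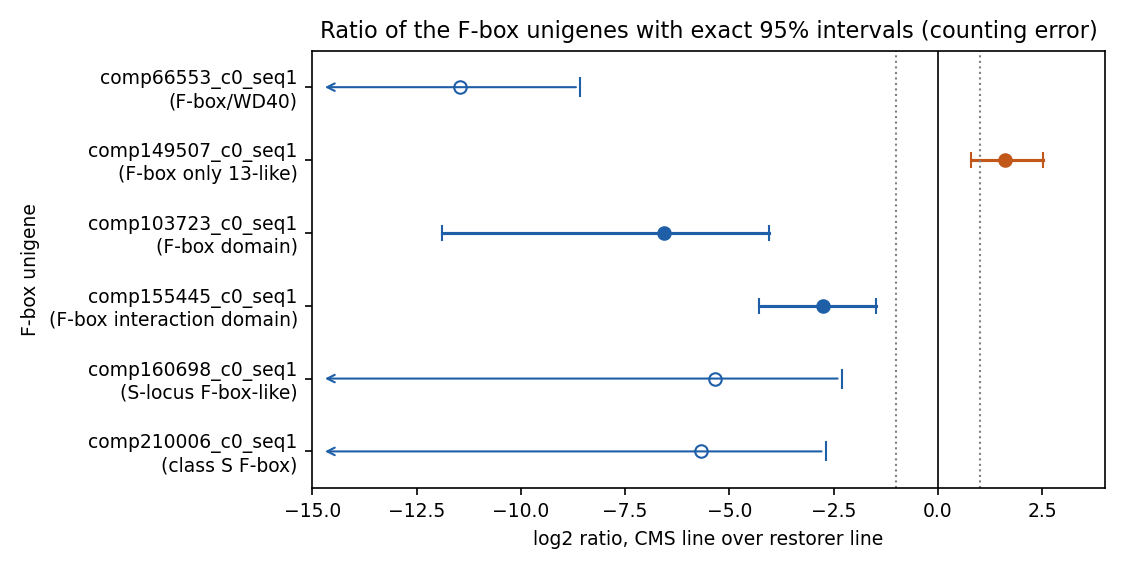
Log2 ratio of 121A over 121C for each F-box unigene, with exact 95% (Clopper-Pearson) intervals; open circles and arrows mark unigenes with 0 121A reads, whose interval has no lower limit, and dotted lines mark a ratio of -1 and 1. The 5 121C-high unigenes (blue) have near limits from -8.58 to -1.49, and the interval of comp149507_c0_seq1 (orange) runs from 0.79 to 2.51.

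In 121C, the order of the levels was comp66553_c0_seq1, comp103723_c0_seq1, comp160698_c0_seq1, comp155445_c0_seq1, comp210006_c0_seq1 and comp149507_c0_seq1. The first was 7.77 times as high as the next, and their intervals did not overlap. Below it, the Poisson intervals of direct neighbours overlapped. Farther apart in the order they did not always do so. The interval of comp103723_c0_seq1 lay above those of comp155445_c0_seq1, comp210006_c0_seq1 and comp149507_c0_seq1, and the intervals of comp160698_c0_seq1 and comp155445_c0_seq1 lay above that of comp149507_c0_seq1. The 6 unigenes had 1434 reads in 121C, of which comp66553_c0_seq1 took 87.7%. Without it, the other 5 had 177 reads in 121C and 62 in 121A. Their count by direction was then 4 higher in 121C and 1 higher in 121A.

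In 121A the order began with comp149507_c0_seq1, which took 88.7% of the 62 reads of the 6 unigenes. Its interval did not overlap with that of comp155445_c0_seq1, the next. The other 4 had 1 or 0 reads and cannot be ordered. By point values, comp149507_c0_seq1 had the highest level of the 6 in 121A and the lowest in 121C, and comp66553_c0_seq1 the highest in 121C with no read in 121A. The interval of the ratio of comp149507_c0_seq1 overlaps with none of the others, and that of comp66553_c0_seq1 overlaps with those of comp103723_c0_seq1, comp160698_c0_seq1 and comp210006_c0_seq1 but not with that of comp155445_c0_seq1.

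**Figure D3:**
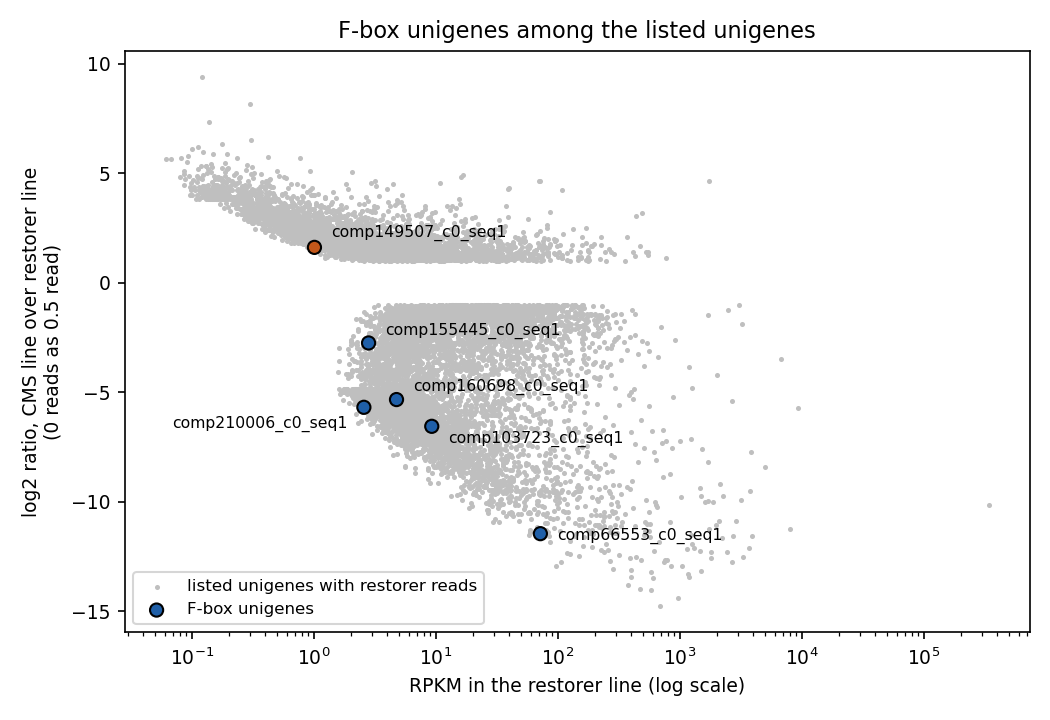
Each listed unigene with reads in 121C (grey), by its RPKM in 121C (log axis) and its log2 ratio of 121A over 121C with 0 reads taken as 0.5 read; the F-box unigenes are outlined, blue where higher in 121C and orange where higher in 121A. The band between -1 and 1 is empty because the table lists called unigenes, and comp66553_c0_seq1 lies at 71.9 RPKM and -11.47.

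Apart from comp66553_c0_seq1, the F-box unigenes lay by point value below the median level of the listed unigenes that went in their direction. The 121C levels of comp103723_c0_seq1, comp160698_c0_seq1, comp155445_c0_seq1 and comp210006_c0_seq1 were between 2.57 and 9.26 RPKM, below the median of 9.75 RPKM of the unigenes that were higher in 121C. For comp103723_c0_seq1 the interval of 7.38 to 11.5 RPKM includes this median, so its level cannot be told from it. The 121A level of comp149507_c0_seq1, 3.09 RPKM, was below the median of 7.98 RPKM of those higher in 121A. Against all listed unigenes, comp103723_c0_seq1 was above 61.3% by its level in 121C and comp149507_c0_seq1 above 50.1% by its level in 121A. The 6 unigenes were from 396 to 1830 bp long with a median of 1146 bp, against a median of 865 bp for all listed ones.

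The calls depended on how much variation between libraries was assumed. At an assumed coefficient of variation of 0.4, the negative binomial test in edgeR, adjusted over all listed unigenes, kept 2 of the 5 F-box unigenes that were higher in 121C, where 23.0% of the listed unigenes were called in this direction. These were comp66553_c0_seq1 with an adjusted p of 3.95e-12 and comp103723_c0_seq1 with 2.7e-05. The adjusted p was 0.00176 for comp210006_c0_seq1, 0.00405 for comp160698_c0_seq1, 0.0268 for comp155445_c0_seq1 and 0.119 for comp149507_c0_seq1. At 0.2, all 5 of the 121C-high unigenes were called, as were 48.8% of the listed unigenes in this direction. The call of comp149507_c0_seq1 was lost in both, where 18.3% and 1.59% of the listed unigenes, respectively, were called higher in 121A. All listed unigenes had been called before from the same reads, so an adjustment over them alone is lenient. The negative binomial test was not adjusted over the whole assembly, and fewer calls could remain there.

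Other call rules kept the 5 unigenes that were higher in 121C. With the MARS test adjusted over the whole assembly, the 5 and the 1 stayed called, as did 59.8% and 36.2% of the listed unigenes. The authors had called all listed unigenes by the same method and thresholds, so this outcome was nearly given in advance. With a threshold of 2 for the size of the log2 ratio, the 5 stayed called and comp149507_c0_seq1 did not, against 47.7% and 19.5% of the listed unigenes. At most 3 reads in 121A were found for 4 of the 6, with comp103723_c0_seq1 joining the 3 at 0, against 32.6% of the listed unigenes. Within the unigenes that were higher in 121C, this was 4 of the 5 F-box unigenes and 3711 of the 7061 listed ones.

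The values of the ratios also depended on the treatment of low reads. With a pseudocount of 1 RPKM added in both lines, the log2 ratio of comp66553_c0_seq1 was -6.19, that of comp103723_c0_seq1 was -3.22 and that of comp210006_c0_seq1 was -1.84. With 0.01 RPKM, the ratio of comp160698_c0_seq1 went to -8.90 and that of comp210006_c0_seq1 to -8.01. Their directions were kept in both settings, which an equal pseudocount in both lines cannot reverse. Without the 10 most abundant listed unigenes of each library in the totals, all ratios were higher by 0.43, and none of the 6 changed its direction or lost its call. In this setting 53.4% of the listed unigenes were called higher in 121C, and 53.2% when 1 unigene per library was left out.

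**Figure D4:**
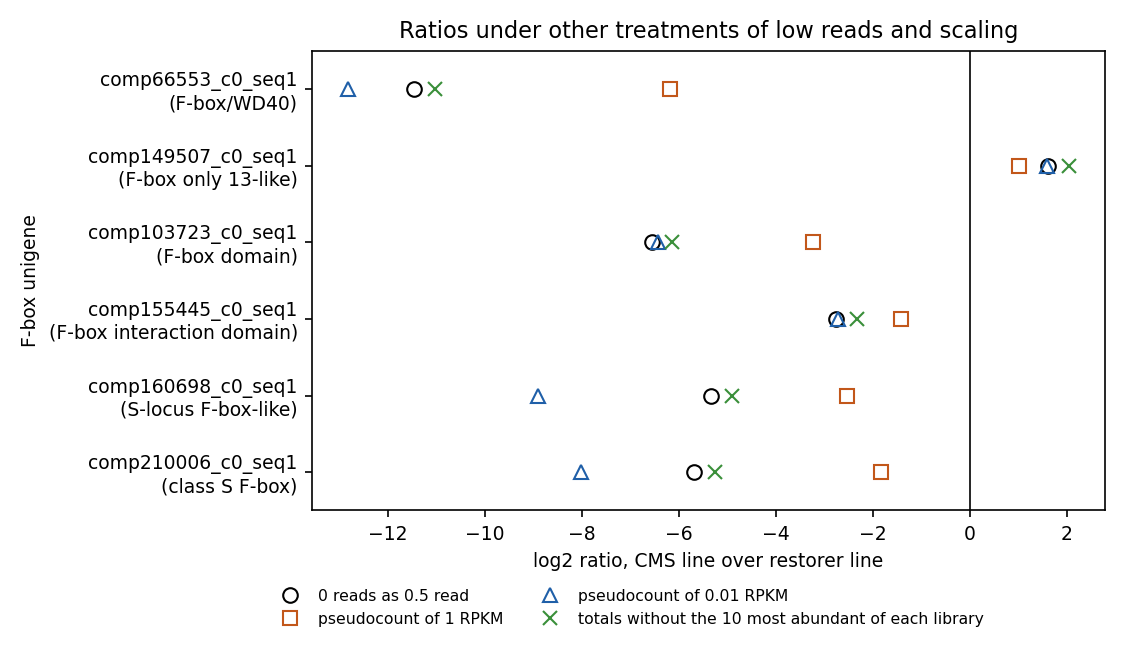
Log2 ratio of 121A over 121C of each F-box unigene with 0 reads taken as 0.5 read (circles), with a pseudocount of 1 RPKM (squares) or 0.01 RPKM (triangles), and with totals without the 10 unigenes highest in each library (crosses). The ratio of comp66553_c0_seq1 ranges from -12.81 to -6.19. Each unigene stays on its side of 0, which an equal pseudocount in both lines cannot change.

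The annotations used here cover 1999 unigenes, the first by name, of which 317 (15.9%) are listed as called. An F-box name was found for 13 of them, and 5 of these 13 are listed, 4 higher in 121C and 1 higher in 121A. The sixth member, comp66553_c0_seq1, was annotated separately as a unigene chosen for RT-PCR. The 8 F-box names without listed values include an F-box/kelch-repeat protein, comp13257_c0_seq1, an F-box/LRR-repeat protein, comp1869_c0_seq1, and comp20992_c0_seq1 and comp23156_c0_seq1, which carry the same name as comp155445_c0_seq1. Their reads were not analysed here.

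Other parts of the ubiquitin pathway were found by keyword in the same annotations. Of 20 such unigenes, 5 are listed, 4 higher in 121C and 1 higher in 121A. Of all 1999 annotations 15.9% are listed, and 55.5% of those listed are higher in 121C and 44.5% in 121A. The 5 are named ubiquitin, ubiquitin-protein ligase, RING-H2 finger protein and U-box protein. RING and U-box ligases, unlike F-box proteins, bind the ubiquitin-carrying enzyme through a domain of their own. The RING-H2 finger unigene comp106450_c0_seq1, similar to ATL43, had 4 reads in 121A and 63 in 121C, a log2 ratio of -4.15 (interval -6.07 to -2.72). The ubiquitin unigene comp23246_c1_seq1 had 4 and 37 reads, which is -3.38 on the log2 scale (interval -5.33 to -1.90). The ubiquitin-protein ligase unigene comp233801_c0_seq1 had 1 and 16 reads, or -4.17 on the log2 scale (interval -9.56 to -1.48).

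The U-box unigenes differed in direction. The U-box domain-containing protein 15-like unigene comp154258_c0_seq1 had 0 reads in 121A and 27 in 121C and was at least 7.68-fold higher in 121C. The U-box domain-containing protein 35-like unigene comp161573_c0_seq1 had 35 reads in 121A and 0 in 121C and was at least 7.999-fold higher in 121A. The names SKP1, cullin and proteasome do not occur in the annotations used here, so these parts of the pathway were not examined.

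Both unigenes annotated with WD40 repeats alone were higher in 121A, as were 44.5% of the listed annotated unigenes. The WD-40 repeat family unigene comp120697_c0_seq1 had 42 reads in 121A and 7 in 121C, a log2 ratio of 2.42 (interval 1.25 to 3.81). The WD repeat-containing protein 44-like unigene comp200905_c0_seq1 had 38 and 2 reads, a log2 ratio of 4.08 (interval 2.13 to 7.18). Besides the S-locus F-box-like unigene, 5 annotations carried the words S-locus or S-RNase, and 0 of these 5 are listed, against 15.9% of all annotations. One of them is the S-RNase binding protein unigene comp229343_c0_seq1, and the others are S-locus glycoprotein or lectin kinase unigenes.

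Likeness of pattern was measured as the distance between log2(RPKM + 1) values over the 2 libraries. The listed unigenes nearest to comp66553_c0_seq1 were comp66182_c0_seq1 with 0 and 365 reads (72.0 RPKM in 121C), comp27373_c0_seq1 with 0 and 317 reads (72.6 RPKM) and comp37548_c0_seq1 with 0 and 527 reads (73.6 RPKM), at distances of 0.00103, 0.0140 and 0.0323. Their annotation was not used here. Among annotated unigenes, those nearest to comp103723_c0_seq1 and comp160698_c0_seq1 were both polyproteins, comp113860_c0_seq1 with 1 and 57 reads and comp185595_c0_seq1 with 0 and 13 reads. Polyprotein is a name given to the translated frame of retroelements. The nearest to comp149507_c0_seq1 was comp141126_c0_seq1 with 47 and 13 reads, to comp155445_c0_seq1 it was comp186182_c0_seq1 with 2 and 23 reads, and to comp210006_c0_seq1 it was comp196227_c0_seq1 with 0 and 20 reads, and these matched proteins of unknown function. As 2 libraries give only 2 values per unigene, many unigenes lie close to each other on this measure.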

How the data were processed

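Anther mRNA of 1 library per line was sequenced as paired reads. By the study's methods the authors removed low-quality and short reads after Casava, assembled both lines together with Trinity and counted reads per unigene. The aligner, and what was done with reads matching more than one unigene, are not given in the sources used here. The authors deposited counts, which are whole reads per unigene, and RPKM, computed by the authors from these counts. The deposited log2 ratio and q-value, and the call and direction beside them, are the authors' own comparison by DEGseq and were not used. The table lists called unigenes only.

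Library totals and unigene lengths were recovered from reads and RPKM, since lengths are whole numbers (largest deviation 4.04e-06). Log2 ratios were computed with 0 reads as 0.5 read. The MARS formula was applied to the reads, with Benjamini-Hochberg adjustment across the 11387 listed unigenes. A quasi-likelihood fit in edgeR needs replicates and was not possible. Its exact negative binomial test (edgeR 4.0.16, R 4.3.3) was run with assumed coefficients of variation of 0.2 and 0.4. Intervals at 95% (scipy 1.17.1) are exact and cover counting error only, since each line has 1 library. Reads without molecular identifiers are not independent molecules, so the intervals may be too narrow even for this error. MARS, the exact binomial test and the negative binomial test were tested on simulated data.

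Other alternatives were adjustment over the whole assembly, a log2 ratio threshold of 2, totals without the 10 unigenes, or the 1 unigene, highest in each library, a pseudocount of 1 or of 0.01 RPKM, a mean of at least 1 RPKM, reads summed per Trinity component, absence as at most 3 reads, and the CMS library thinned to the restorer total (median of 100 draws). TMM and median-ratio scaling were not run, because a list of called unigenes does not meet their assumption that most genes do not change. Leaving out comp66553_c0_seq1 was chosen after seeing the data. The members and keyword lists were chosen with earlier results of these data known. Named unigenes are the 6 members, the listed unigenes of the keyword lists for the ubiquitin pathway, WD40 repeats and the S-locus, the 3 unigenes nearest to comp66553_c0_seq1 and, for each other member, the 1 nearest annotated unigene. The unlisted unigenes named for their annotation were chosen after it was known that they are not listed.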

Additional observations from a re-analysis of the deposited data

How the results depend on the processing

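The 5 F-box unigenes higher in the restorer line became 2 with the negative binomial test at an assumed coefficient of variation of 0.4. The 1 unigene higher in the CMS line, comp149507_c0_seq1, became 0 with that test at 0.2 and at 0.4 and with a log2 ratio threshold of 2. The counts were 5 and 1 with the exact binomial test, with a minimum mean of 1 RPKM and with reads summed per Trinity component. These settings could hardly change them. The exact binomial test called all listed unigenes again (62.0% and 38.0% by direction). The minimum mean left all tested unigenes called (62.1% and 37.9%), and no member has another listed unigene in its component. The counts were also 5 and 1 with adjustment over the whole assembly (59.8% and 36.2% of the listed unigenes). They stayed so with totals without the 10 or the 1 most abundant unigenes of each library (53.4% or 53.2%, and 38.0%). The number of F-box unigenes with 0 reads in the CMS line was 3, and 4 when at most 3 reads counted as absent. It was 3 after thinning of the CMS library, but thinning can only remove reads, so the number could not become smaller. With a pseudocount of 1 RPKM, 4 of the 6 log2 ratios left their counting interval, and with 0.01 RPKM none of the 6 did. No ratio changed its sign in the settings tried, but most of them could not change one. An equal pseudocount in both lines keeps the sign, and the other tests and thresholds use the same ratios. The changed totals moved every ratio by 0.43, less than the size of any of the 6. No paired analysis was possible because each line has 1 library. Leaving out a replicate was not possible for the same reason. The depth limits the ratios of comp160698_c0_seq1 and comp210006_c0_seq1, as their 18 and 23 restorer reads set how far below the restorer level the CMS level can be placed.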
